A study of Mus musculus with 4 samples.

Results

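The BCL2 family cell death genes were taken by gene symbol as Bcl2, Bcl2l1 (encoding BCL-XL), Mcl1, Bax, Bak1, Bcl2l11 (BIM), Bbc3 (PUMA), Pmaip1 (NOXA), Bnip3 and Bnip3l (NIX). All 10 were among the 22322 genes of the files, each with a single row, and 9 of them were among the 12499 genes with enough counts for a test. RNA-seq was available for isolated cardiomyocytes in 2 sham libraries and 2 libraries made after transverse aortic constriction (TAC), a narrowing of the aortic arch that loads the left ventricle. Male mice were operated at 2 months of age, and echocardiography and organ weights were taken 14 weeks after surgery. The methods also describe the mice whose hearts were taken apart as 14 weeks old, which is at odds with that interval, and this was not resolved here. The strain was not given in the labels. Cells were released with enzymes by perfusing the heart through its vessels (Langendorff perfusion), and the cells of a heart were shared among several assays, with RNA of each sample taken from a single heart. Sham and TAC libraries differed, as far as the labels tell, only in the operation.

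The BCL2 family decides whether a stressed cell keeps its mitochondria intact or lets cytochrome c leak out and dies. Pro-survival members such as BCL2, BCL-XL and MCL1 hold the pore formers BAX and BAK in check, and the BH3-only members BIM, PUMA and NOXA bind the pro-survival proteins and free or activate the pore formers. BNIP3 and NIX, a pair of related outer membrane proteins, are better known as receptors that mark mitochondria for removal by autophagy. Heart muscle cells hardly divide and carry many mitochondria, so that this balance has been studied widely in hearts under pressure load.

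The libraries held 24237777 to 32118323 counts. The 13 protein-coding mitochondrial genes took 39.8% to 40.8% of the counts in the sham libraries and 40.3% in TAC 2 but 47.4% in TAC 1, which stood apart. Replicates of a group differed by more than sampling noise, more so in TAC (chi-square of 26.7 per degree of freedom) than in sham (8.08). Defining cardiomyocyte genes such as Myh6, Tnnt2 and Ryr2 were abundant in all libraries, and the summed level of 6 such genes was 43258 to 50203 CPM (counts set to a common size of the tested libraries after TMM scaling). Markers of other heart cells were low beside these genes, but not all were low beside the members. In sham, Rgs5 of the mural cells was at 221 and 207 CPM, above Mcl1 at 158 and 163 CPM. Most markers of other heart cells were lower in TAC. Their values are given in full after the lists of related genes.

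None of the 9 members tested was called changed in TAC by edgeR's quasi-likelihood test with a Benjamini-Hochberg adjusted p under 0.05, a threshold that 5.01% of all tested genes passed. DESeq2 called 1, Bcl2, at a background of 7.37% of all tested genes. At an unadjusted p under 0.05 there were 4 members (Bcl2, Bcl2l11, Bnip3 and Mcl1) of 9, while 27.5% of all tested genes passed that level. Sham and TAC libraries did not overlap for 6 of the 9, a share near the 60.1% of all tested genes without overlap. The median log2 fold change of the 9 members was −0.07, with −0.01 over all genes tested. The members nearest the threshold were Bcl2, higher in TAC, and Bcl2l11, lower in TAC, and either was called under several other settings of the analysis. For 2 libraries against 2, the smallest p of an exact two-sided permutation test is 0.333, so that each p here rests on the spread that edgeR pools over genes.

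Apart from the BNIP3 pair, the proteins meet through the BH3 motif, a short helix. The stretch of coding sequence that spells the motif is shown here for the members in which a search of the GENCODE M21 proteins found it, since this is the feature by which the members recognise each other. The motif was searched as leucine, any 3 residues, glycine or alanine, then aspartate, and each protein shown held it once. Sequences are given 5′ to 3′ on the coding strand of GRCm38, and capitals mark the codons of the motif from leucine to aspartate.
Bcl2, chr1:106712575-106712613, minus strand: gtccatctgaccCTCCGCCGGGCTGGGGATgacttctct
Bcl2l1, chr2:152829697-152829735, minus strand: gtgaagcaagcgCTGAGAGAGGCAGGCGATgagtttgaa
Mcl1, chr3:95659424-95659462, plus strand: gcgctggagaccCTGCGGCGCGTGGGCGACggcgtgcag
Bax, chr7:45465997-45466035, minus strand: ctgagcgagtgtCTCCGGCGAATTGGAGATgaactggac
Bak1, chr17:27022531-27022569, minus strand: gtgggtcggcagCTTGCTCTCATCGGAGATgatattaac
Bcl2l11, chr2:128147138-128147176, plus strand: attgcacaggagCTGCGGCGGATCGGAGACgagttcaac
Bbc3, chr7:16313761-16313799, plus strand: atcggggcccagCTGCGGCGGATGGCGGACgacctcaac

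The residue before the aspartate was glycine in Bcl2, Bcl2l1, Mcl1, Bax, Bak1 and Bcl2l11, and alanine in Bbc3. Bnip3l held a match with alanine at that place (chr14:66989441-66989479, minus strand), and Bnip3 held none, which says only that these residues do not occur there in this order. Pmaip1 was not searched. All of these stretches lie in coding exons.

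Levels were first compared between members per length of transcript, as FPKM (fragments corrected for transcript length and library size, as deposited), since a long transcript collects more counts. Bnip3 had the highest level, at 76.8 ± 2.0 FPKM in sham (mean ± SD, n = 2) and 81.2 ± 2.8 FPKM in TAC, above 96.0% of tested genes by its sham level. Mcl1 followed at 50.1 ± 0.87 FPKM in sham and 38.1 ± 0.25 FPKM in TAC. Bnip3l came next at 12.4 ± 0.69 FPKM in sham and 10.4 ± 1.7 FPKM in TAC. These 3 genes kept their order in both groups with no overlap of libraries. The level of Bcl2l1 was 6.75 ± 0.70 FPKM in sham and 5.18 ± 0.60 FPKM in TAC. Bax and Bak1, the pore formers, stood side by side at 5.05 ± 0.071 and 4.99 ± 0.17 FPKM in sham, with overlapping libraries in both groups, and in TAC the libraries of Bax also overlapped those of Bcl2l1. At 2.50 ± 0.22 FPKM in sham, Bcl2l11 was above Bcl2 at 0.93 FPKM in both sham libraries. In TAC the libraries of these genes overlapped, at 1.33 ± 0.32 FPKM for Bcl2l11 and 1.31 ± 0.035 FPKM for Bcl2. Lowest were Bbc3 (0.63 ± 0.21 FPKM in sham, 0.36 ± 0.071 FPKM in TAC) and Pmaip1 (0.115 ± 0.078 FPKM in sham, 0.035 ± 0.0071 FPKM in TAC). Among the pro-survival members, Mcl1 was thus the main transcript and Bcl2 the least.

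**Figure D1:**
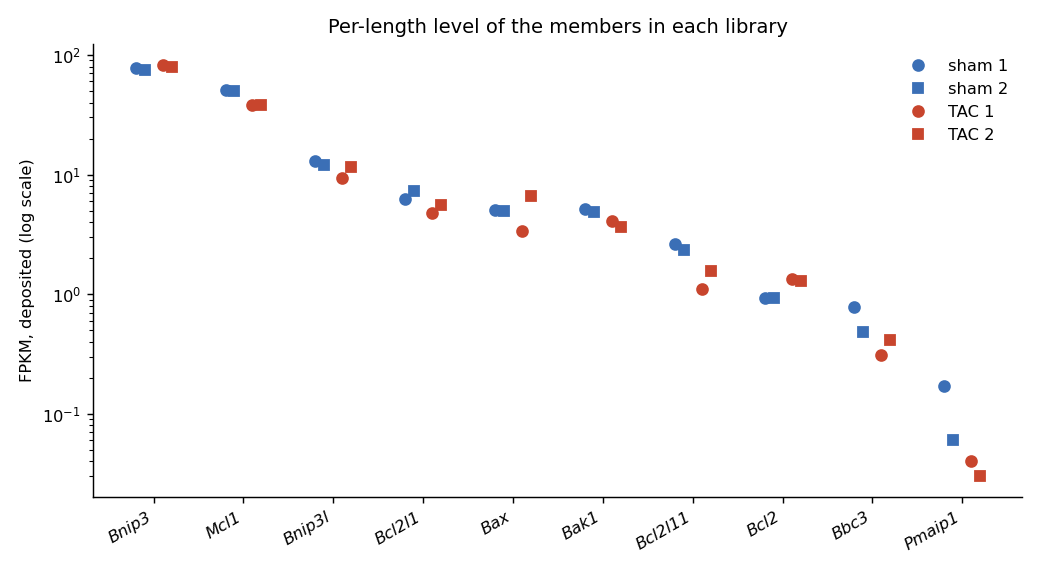
Deposited FPKM (log axis) of the 10 members in each library, ordered by the sham mean; circles are replicate 1 and squares replicate 2, blue for sham and red for TAC. Bnip3 and Mcl1 lie highest in every library, and Bcl2l11 and Bcl2 lie apart in sham but overlap in TAC.

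Among the pro-survival members, Bcl2 stood at 6.04 CPM in sham 1, 6.43 CPM in sham 2, 10.97 CPM in TAC 1 and 9.04 CPM in TAC 2. Both TAC libraries lay above both sham libraries, and they differed from each other by more than the sham libraries did. The log2 fold change was 0.69 ± 0.16 (SE, 95% interval 0.32 to 1.05, edgeR adjusted p = 0.0509). These levels rest on 185 to 306 counts per library. In the deposited FPKM, Bcl2 was at 0.93 in both sham libraries, 1.34 in TAC 1 and 1.29 in TAC 2. The gene was called by DESeq2 (adjusted p = 0.045), which called 7.37% of the genes it tested, and without the filter on low counts (edgeR adjusted p = 0.0096), when 10.5% were called. Leaving out TAC 2 also brought the call (log2 fold change 0.82, edgeR adjusted p = 0.0212), at a background of 10.3%. Leaving out TAC 1 gave 0.54 with an edgeR adjusted p of 0.182. The fold change was above 0 under all 11 other settings, from 0.26 to 0.82, with adjusted p from 0.0096 to 0.314. The 0.26 came from limma on log2(FPKM + 1), where the added 1 is near the gene's own level and shrinks the value. On log2(FPKM + 0.1) it was 0.46. Bcl2 (ENSMUSG00000057329, chr1:106538178-106714274) is overlapped on the opposite strand by D630008O14Rik, and since no source says whether counting used strand, reads of the 2 genes cannot be told apart.

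Mcl1, whose protein turns over fast and is needed for mitochondrial upkeep in heart muscle, was at 158 CPM in sham 1, 163 CPM in sham 2, 149 CPM in TAC 1 and 124 CPM in TAC 2. Both TAC libraries were below both sham libraries, TAC 1 by little. The log2 fold change was −0.23 ± 0.10 (SE, 95% interval −0.45 to −0.0044, edgeR adjusted p = 0.175). It ranged from −0.43 to −0.10 over the other settings, with adjusted p from 0.061 to 0.51. Leaving out TAC 1 gave −0.37 and leaving out TAC 2 gave −0.10, so the size of the difference depended on which TAC library was kept. Mcl1 (ENSMUSG00000038612, chr3:95658788-95663176) had 3042 to 5003 counts per library, and its interval is among the narrowest of the members.

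Bcl2l1 was at 13.3 CPM in sham 1, 15.7 CPM in sham 2, 13.0 CPM in TAC 1 and 12.7 CPM in TAC 2. The TAC libraries were lower, but sham 1 and TAC 1 nearly met. The log2 fold change was −0.17 ± 0.13 (SE, 95% interval −0.46 to 0.12, edgeR adjusted p = 0.405), and it did not pass the test under any of the settings. It was −0.04 without sham 2, −0.29 without sham 1 and −0.36 with total-count scaling. GENCODE lists 9 transcripts for Bcl2l1 (ENSMUSG00000007659, chr2:152780668-152831728), and the short, pro-death form made by a different splice site was not told apart from the long form at the level of genes.

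**Figure D2:**
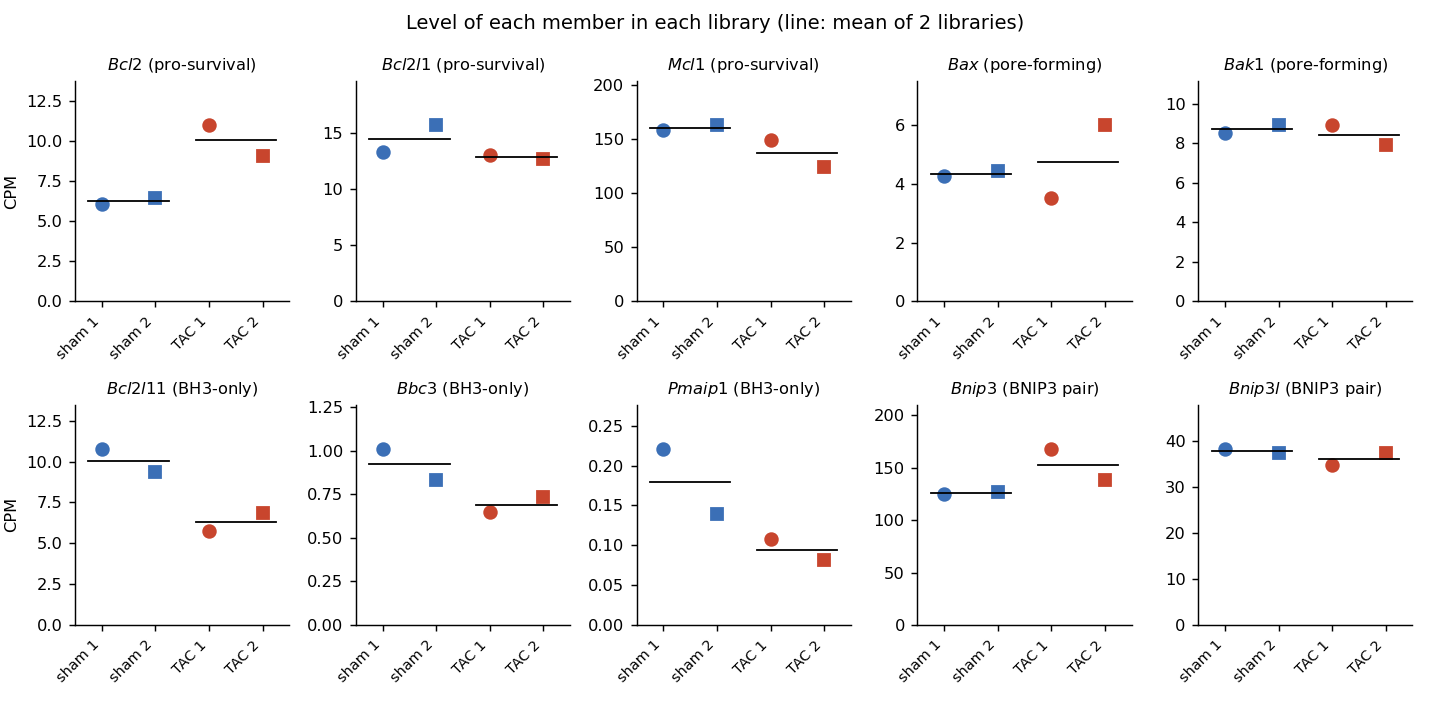
CPM of each member in each library on a linear axis from 0, circles for replicate 1 and squares for replicate 2, with a line at the mean of each group (n = 2). Bcl2 and Bnip3 lie higher in both TAC libraries, Bcl2l11 lies lower in both, and Bax lies below sham in TAC 1 and above it in TAC 2.

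Of the pore formers, Bax stood at 4.27 and 4.45 CPM in the sham libraries. TAC 1 had 3.51 CPM and TAC 2 had 6.01 CPM, so that TAC lay on both sides of sham. The log2 fold change was 0.12 ± 0.26 (SE, 95% interval −0.49 to 0.74, edgeR adjusted p = 0.796), a wide interval that allows a difference in either direction. Its sign turned with the scaling and with the TAC library kept, from −0.31 without TAC 2 to 0.46 without TAC 1. Bax (ENSMUSG00000003873, chr7:45461697-45466898) is overlapped on the same strand by Gm45808, which had 6.53 counts in sham 2 and 0 in the other libraries.

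Bak1 was at 8.53 CPM in sham 1, 8.93 CPM in sham 2, 8.93 CPM in TAC 1 and 7.93 CPM in TAC 2. The groups overlapped, and the log2 fold change was −0.05 ± 0.14 (SE, 95% interval −0.37 to 0.28, edgeR adjusted p = 0.850). The overlapping gene on the other strand, Ggnbp1, had 236 and 245 expected counts in sham and 146 and 144 in TAC, against 194 to 270 for Bak1 (ENSMUSG00000057789, chr17:27019810-27029009).

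Bcl2l11, whose product BIM can bind every pro-survival member, was at 10.8 CPM in sham 1, 9.35 CPM in sham 2, 5.74 CPM in TAC 1 and 6.87 CPM in TAC 2. Both TAC libraries were well below both sham libraries. The log2 fold change was −0.68 ± 0.16 (SE, 95% interval −1.05 to −0.31, edgeR adjusted p = 0.0547). Counts of Bcl2l11 (ENSMUSG00000027381, chr2:128126038-128162547) ran from 160 to 341 per library. With no filter on low counts the gene was called (edgeR adjusted p = 0.0109), as it was without TAC 2 (−0.81, edgeR adjusted p = 0.0315). DESeq2 gave an adjusted p of 0.0509. The fold change was below 0 under all 11 other settings, from −0.87 to −0.55, with adjusted p from 0.0109 to 0.182. The weakest values came without TAC 1 (−0.55) and without sham 1 (−0.57). The summed markers of endothelial cells (378 to 473 CPM in sham, 218 to 309 CPM in TAC), fibroblasts (167 to 233 and 95.8 to 132 CPM), mural cells (347 to 366 and 147 to 253 CPM) and macrophages (62.0 to 120 and 31.3 to 59.9 CPM) were lower in TAC as well, and their part in the value of Bcl2l11 was not tested.

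Bbc3 (ENSMUSG00000002083, chr7:16308393-16318205), a target of p53, was at 1.01 CPM in sham 1, 0.834 CPM in sham 2, 0.646 CPM in TAC 1 and 0.736 CPM in TAC 2. That is 32, 24, 18 and 18 counts, and the log2 fold change of −0.42 ± 0.39 (SE, 95% interval −1.32 to 0.48, edgeR adjusted p = 0.508) was not distinguishable from 0 at this depth. The same marker sums were lower in TAC beside it, and their part was not tested. Pmaip1 had 7 and 4 counts in sham and 3 and 2 counts in TAC and was left out of the test by the filter on low counts. No fold change is given for Pmaip1 (ENSMUSG00000024521).

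Bnip3 was at 125 CPM in sham 1, 127 CPM in sham 2, 168 CPM in TAC 1 and 138 CPM in TAC 2. Both TAC libraries were above sham, TAC 1 by more. The log2 fold change was 0.28 ± 0.10 (SE, 95% interval 0.04 to 0.51, edgeR adjusted p = 0.134). Without TAC 2 it was 0.42 and was called (edgeR adjusted p = 0.0254), whereas without TAC 1 it was 0.13 (edgeR adjusted p = 0.53). The difference thus came mostly from TAC 1, the library with the largest mitochondrial share. With scaling by total counts the difference shrank to 0.08. In the deposited FPKM the groups still did not overlap, at 78.2 and 75.4 in sham and 83.1 and 79.2 in TAC. Gm45507 overlaps Bnip3 (ENSMUSG00000078566, chr7:138890836-138909519) on the opposite strand.

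Bnip3l (ENSMUSG00000022051, chr14:66985239-67008877) was at 38.2 CPM in sham 1, 37.3 CPM in sham 2, 34.7 CPM in TAC 1 and 37.4 CPM in TAC 2. The groups overlapped, with a log2 fold change of −0.07 ± 0.08 (SE, 95% interval −0.26 to 0.13, edgeR adjusted p = 0.635).

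**Figure D3:**
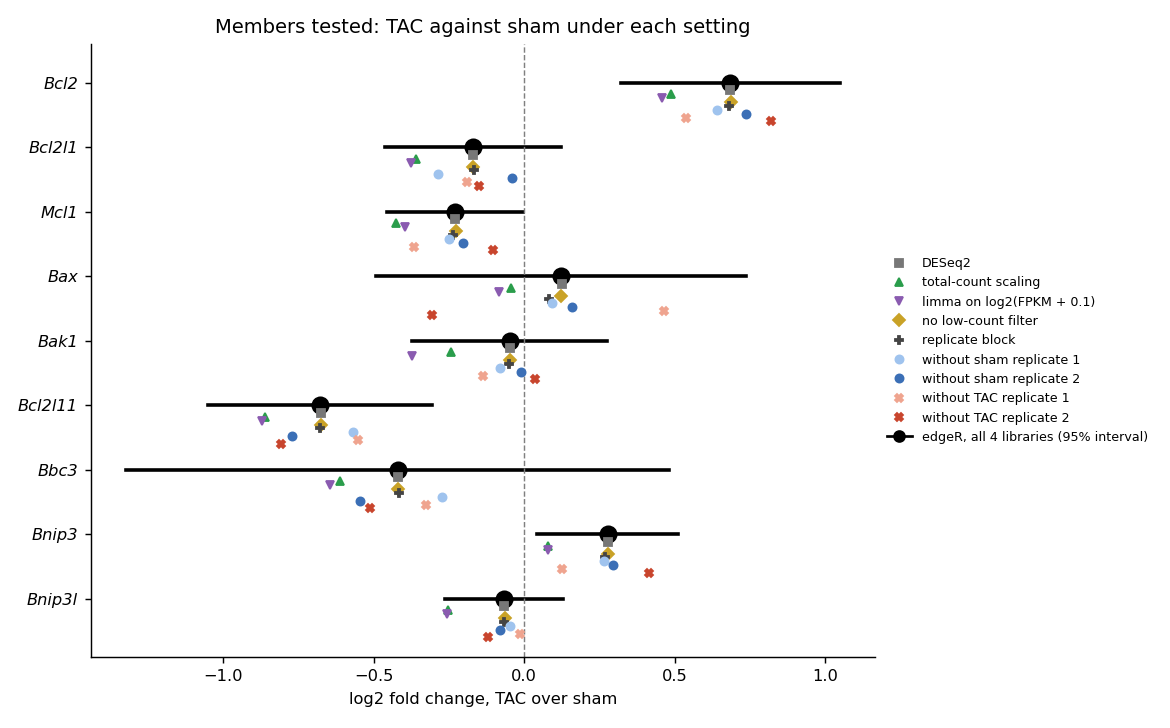
Log2 fold change, TAC over sham, of the 9 members tested, with the edgeR estimate (large black circle) and its 95% interval, and small symbols below it for 9 other settings. Bcl2 lies above 0 and Bcl2l11 below 0 under each setting drawn, while the symbols of Bax and Bak1 fall on both sides.

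The scaling of the libraries bears on all these values alike. With total counts in place of TMM factors the median log2 fold change over the table moved from −0.01 to −0.20, and the calls went from 322 higher and 304 lower to 105 higher and 426 lower. Bcl2 went from 0.69 to 0.49 and Bcl2l11 from −0.68 to −0.86, each by about the shift of that median.

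A ratio of genes within a library does not depend on that scaling. The ratio of Bcl2 to Bcl2l11, chosen after the values of both genes were seen, was 0.560 in sham 1 and 0.688 in sham 2 by CPM. It was 1.91 in TAC 1 and 1.32 in TAC 2. The mean of the log2 ratios was 1.35 higher in TAC, with no overlap of groups and no test, given the few libraries. By deposited FPKM the difference was 1.42. The ratio of Bax to Bcl2, a common index of the balance in cardiology, was 0.707 and 0.692 in the sham libraries, 0.320 in TAC 1 and 0.665 in TAC 2 by CPM. The mean log2 ratio was 0.60 lower in TAC (−0.52 in sham and −1.12 in TAC), but TAC 2 lay close to the sham libraries, so that the difference is nearly all TAC 1. By FPKM, which takes length into account, Bax was above Bcl2 in all 4 libraries, by 5.48 and 5.38 in sham and by 2.52 and 5.18 in TAC.

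Summed per length, the 3 pro-survival members reached 57.9 and 57.7 FPKM in the sham libraries and 44.0 and 45.1 FPKM in the TAC libraries. Mcl1 made up 84.7% to 87.6% of that sum, so that it follows Mcl1 and not Bcl2. The 5 pore-forming and BH3-only members summed to 13.8 and 12.8 FPKM in sham, to 8.89 FPKM in TAC 1 and to 12.3 FPKM in TAC 2. Both sums were lower in the TAC libraries, but for the 5 pro-death members TAC 2 nearly met the sham libraries. Their mean log2 difference of −0.34 was −0.11 without TAC 1 and −0.58 without TAC 2. In CPM the difference of the pro-survival sum was smaller (−0.19 against −0.38 on the log2 scale). By FPKM the whole table sat lower in TAC, with a median difference of −0.188 by limma on log2(FPKM + 0.1). With TMM scaling that median was −0.01. The FPKM differences of both sums therefore include a shift that genes at large share, and they are not a fall of these members alone.

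Other genes of the pathway were read in the same fit, from 8 lists. As background for the counts below, edgeR called 5.01% of all tested genes, DESeq2 7.37% and edgeR with no low-count filter 10.5%. By edgeR, 27.5% had an unadjusted p under 0.05. Of 15 other BCL2 family genes, 8 had enough counts to be tested and none was called by edgeR, nor was any at an unadjusted p under 0.05 or called by DESeq2. Their median log2 fold change was −0.01. The most abundant were Bcl2l13, an outer membrane protein that also serves as a mitophagy receptor, at 81.3 and 85.4 CPM in sham and 89.3 and 85.6 CPM in TAC, and the pro-survival Bcl2l2 (BCL-W), at 24.97 and 28.8 CPM in sham and 26.6 and 27.1 CPM in TAC. Bcl2l10, Bcl2l14 and Bcl2l15 had no counts.

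Downstream of the pore, 18 of 19 genes of the apoptosome and the caspases were tested and 1 was called. Dffa, which encodes the inhibitor of the DNase that cuts DNA in apoptosis, rose from 23.7 and 25.2 CPM in sham to 35.3 and 33.0 CPM in TAC (log2 fold change 0.48 ± 0.09, edgeR adjusted p = 0.0322). Cycs, encoding cytochrome c, was at 446 and 461 CPM in sham and 521 and 523 CPM in TAC (0.20 ± 0.07, edgeR adjusted p = 0.131). Aifm1, an oxidoreductase that can leave damaged mitochondria, was at 65.7 and 69.9 CPM in sham and 67.8 and 69.2 CPM in TAC (0.02 ± 0.08, edgeR adjusted p = 0.913). The list's median was −0.05. Dffa lost its call with total-count scaling (0.29) and without sham 1 (0.44) or TAC 1 (0.43), and by limma on log2(FPKM + 0.1) (0.28, limma adjusted p = 0.247).

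In the death receptor and necroptosis list, none of 9 genes was called by edgeR or by DESeq2. With total-count scaling 1 was called (531 of 12499 genes over the table), as was 1 by limma on log2(FPKM + 0.1) (195 of 12499). With no low-count filter 2 were called, at a background of 10.5%. In the edgeR test 3 of the 9 had an unadjusted p under 0.05, all lower in TAC, a level that 27.5% of all tested genes passed. Tnfrsf1a, the main TNF receptor, was at 22.2 and 18.97 CPM in sham and 11.7 and 17.3 CPM in TAC (log2 fold change −0.51 ± 0.18, edgeR adjusted p = 0.129). Cflar, which blocks caspase 8, was at 16.5 and 16.2 CPM in sham and 14.2 and 14.9 CPM in TAC (−0.17 ± 0.10, edgeR adjusted p = 0.337). The median of the list was −0.34, the lowest of the 8 lists. Tnfrsf1a had the same order of libraries as the endothelial, fibroblast and macrophage sums given after these lists, and their part was not tested.

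Of 18 mitophagy genes, all tested, 1 was called by edgeR (5.01% over all genes). DESeq2 called 3 (7.37% over all genes), and edgeR with no low-count filter also called 3 (10.5%). The edgeR call was Ppm1k, a phosphatase of branched-chain amino acid breakdown that is not a mitophagy gene in the strict sense, and it fell from 86.9 and 96.1 CPM to 58.0 and 62.6 CPM (log2 fold change −0.60 ± 0.08, edgeR adjusted p = 0.0149). Pink1 was at 363 and 362 CPM in sham and 355 and 341 CPM in TAC (−0.06 ± 0.07, edgeR adjusted p = 0.627). Sqstm1, the autophagy adaptor p62, was at 277 and 306 CPM in sham and 396 and 343 CPM in TAC (0.34 ± 0.10, edgeR adjusted p = 0.0814). A further 5 genes of the list besides Sqstm1 were higher at an unadjusted p under 0.05, which 27.5% of all tested genes passed in either direction. The list's median was 0.08.

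None of 10 genes linked to the permeability transition pore was called by edgeR, and DESeq2 called 1, at a background of 7.37%. In the edgeR test 5 of the 10 had an unadjusted p under 0.05, all higher in TAC, a level that 27.5% of all tested genes passed. Slc25a4, the heart's ADP/ATP carrier, was at 2467 and 2628 CPM in sham and 2980 and 2875 CPM in TAC (log2 fold change 0.20 ± 0.09, edgeR adjusted p = 0.198). Slc25a3, the phosphate carrier, was at 1100 and 1096 CPM in sham and 1187 and 1197 CPM in TAC (0.12 ± 0.08, edgeR adjusted p = 0.347). With a median of 0.18 this list was the highest of the 8. These values depend on the TMM scaling, and with total-count scaling the median over the whole table moved from −0.01 to −0.20.

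The p53 list, which bears on Bbc3, Bax and Pmaip1 as known p53 targets, had 2 of 16 genes called by edgeR (5.01% over all genes). DESeq2 called 5 (7.37% over all genes), and edgeR with no low-count filter called 7 (10.5%). Gdf15, a stress cytokine, rose from 1.64 and 0.730 CPM to 7.998 and 4.95 CPM (log2 fold change 2.43 ± 0.39, edgeR adjusted p = 0.0207). Cdkn1a, the cell cycle inhibitor p21, rose from 15.5 and 10.9 CPM to 27.3 and 21.3 CPM (0.88 ± 0.19, edgeR adjusted p = 0.0443). Trp53 itself, named here outside the rule, was at 5.75 and 5.56 CPM in sham and 5.95 and 7.16 CPM in TAC (edgeR adjusted p = 0.440). Of the members that are p53 targets, Bbc3 had an interval (−1.32 to 0.48) that allows either direction, as did Bax (−0.49 to 0.74), and Pmaip1 was not tested. Cdkn1a lost its call with total-count scaling (0.67), without TAC 1 (0.68) and by limma on log2(FPKM + 0.1) (0.68, limma adjusted p = 0.115). Gdf15 was called in each of these, but its size depended on single libraries, with 3.15 without sham 1 and 1.98 without sham 2.

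Bnip3 is a textbook target of the hypoxia factor HIF. Of 16 hypoxia genes 2 were called by edgeR, which called 5.01% of all tested genes. Vegfa, the vascular growth factor, rose from 198 and 188 CPM to 358 and 261 CPM (log2 fold change 0.68 ± 0.14, edgeR adjusted p = 0.0400), and P4ha1, a collagen prolyl hydroxylase subunit, rose from 47.6 and 45.6 CPM to 68.1 and 66.3 CPM (0.53 ± 0.08, edgeR adjusted p = 0.0149). The list's median was 0.09, with 9 of 16 genes above 0. In the edgeR test 3 genes were higher and 3 lower at an unadjusted p under 0.05. The 3 lower were Ndrg1 (−0.41), Bhlhe40 (−0.35) and Epas1 (−0.17). With total-count scaling neither Vegfa (0.48) nor P4ha1 (0.34) was called. Nor were these 2 called by limma on log2(FPKM + 0.1), where the limma adjusted p was 0.0857 for Vegfa and 0.232 for P4ha1. Vegfa was also not called without TAC 1 (0.44). The core of the HIF site, ACGTG on either strand, was searched in the RefSeq promoters (250 bases before to 50 after the start, GRCm38.p6) of 8 members. It occurred in 3 of the 8, in the promoters of Bnip3 and Bax and in 1 of 3 promoters of Bbc3, and 29.3% of 9921 tested genes with an entry held it in at least 1 promoter. Bnip3l and Pmaip1 were not searched. In Bnip3 it sits once, within CACGTG, which reads the same on both strands and is also the E-box bound by other factors.

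Among 15 regulators of BH3-only genes, 14 were tested and 1 was called. Jun, whose product can drive Bcl2l11, fell from 155 and 107 CPM to 41.0 and 34.7 CPM (log2 fold change −1.79 ± 0.17, edgeR adjusted p = 0.00489). Huwe1 and Usp9x, the ligase that marks MCL1 for breakdown and the protease that removes the mark, were at 202 and 218 CPM and 175 and 190 CPM in sham, and at 182 and 182 CPM and 172 and 175 CPM in TAC. Neither was called, with log2 fold changes of −0.21 for Huwe1 (edgeR adjusted p = 0.129) and −0.07 for Usp9x (edgeR adjusted p = 0.557). Jun is also an immediate early gene, and 5 of 6 such genes were called lower in TAC.

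**Figure D4:**
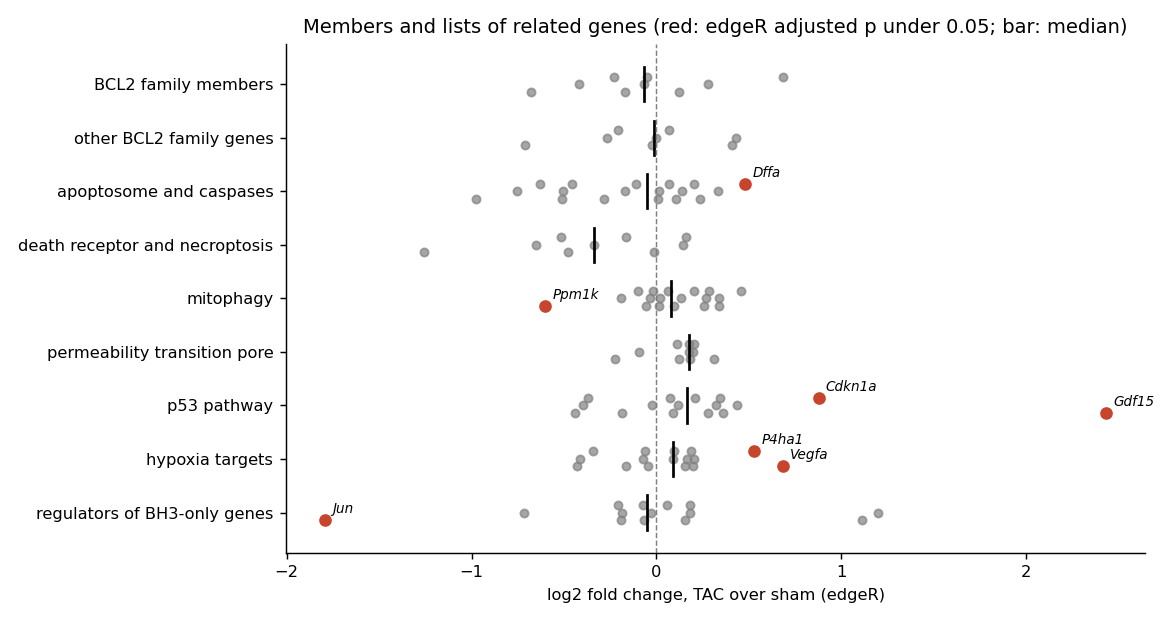
Log2 fold change, TAC over sham (edgeR), of each tested gene in the BCL2 family members and in 8 lists of related genes, with red dots for genes past an adjusted p of 0.05 and a bar at each median. No member is red, the called genes are spread over 5 lists, and the medians lie between −0.34 and 0.18.

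Markers of other heart cells moved with the groups as well. The summed level of 8 endothelial markers was 473 and 378 CPM in sham 1 and sham 2, then 218 CPM in TAC 1 and 309 CPM in TAC 2, and that of 8 fibroblast markers was 233, 167, 95.8 and 132 CPM in the same order. For 6 mural cell markers the sums were 347, 366, 147 and 253 CPM. Macrophage markers (8 genes) summed to 120, 62.0, 31.3 and 59.9 CPM, and 5 red blood cell markers to 84.9, 73.7, 49.9 and 125 CPM. The 6 neutrophil and lymphocyte markers summed to 5.91, 4.31, 3.01 and 4.09 CPM, and Cd3e was at 0 in all libraries but sham 2. All genes of the endothelial, fibroblast, macrophage and mural lists had fold changes below 0. Of these, edgeR called 2 endothelial, 2 fibroblast and 1 mural gene, and no macrophage gene although 6 of 8 had an unadjusted p under 0.05, while the 6 cardiomyocyte markers went both ways, with a median log2 fold change of 0.04. None of these was called by edgeR, but Myl2 (0.41) and Actc1 (0.35) were higher and Ryr2 (−0.38) lower at an unadjusted p under 0.05. In bulk RNA, fewer cells of a type and less RNA per cell cannot be told apart.

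By Bcl2l11 the libraries fell from sham 1 over sham 2 and TAC 2 to TAC 1. The endothelial, fibroblast, macrophage, and neutrophil and lymphocyte sums had the same order, and Bcl2 had the reverse. Bbc3 had it too, but with 18 counts in each TAC library its order there rests on the scaling. The mural sum was highest in sham 2 (366 CPM) and the red blood cell sum in TAC 2 (125 CPM). The share of all genes with this order was not counted, and 60.1% of tested genes had no overlap of the groups. The part of the other cells in the values of Bcl2l11, Bbc3 and Bcl2, and in those of the lists of related genes, was not tested. The immediate early genes summed to 644, 368, 127 and 119 CPM in sham 1, sham 2, TAC 1 and TAC 2, with TAC 2 lowest, and their part was not tested either.

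**Figure D5:**
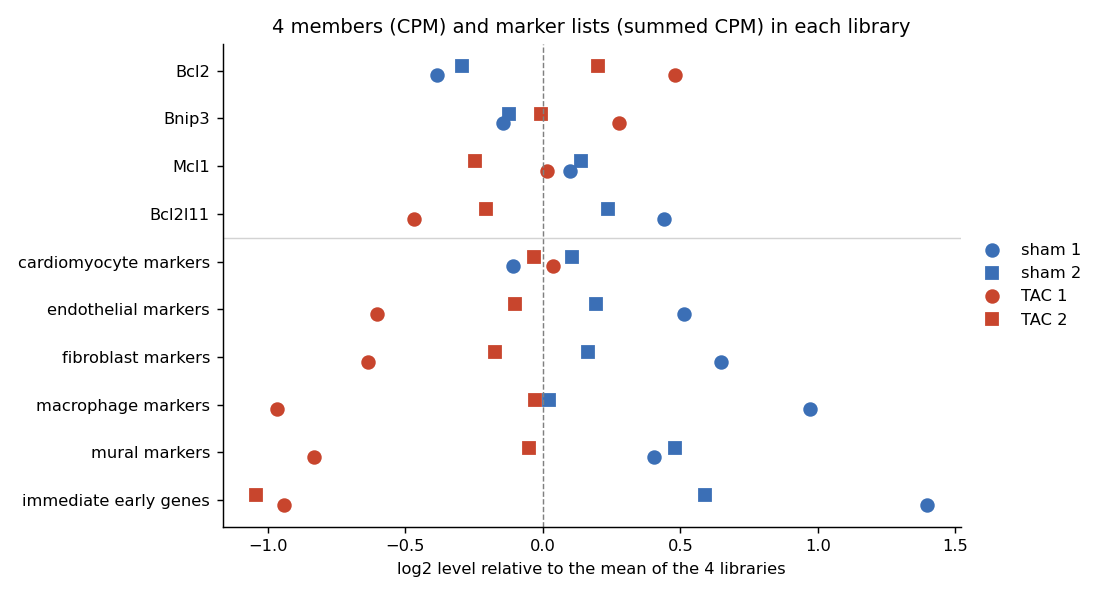
Log2 level of 4 members (CPM) and of 6 gene lists (summed CPM) in each library relative to the mean of the 4 libraries, with circles for replicate 1, squares for replicate 2, blue for sham and red for TAC. Bcl2l11 and the lists of endothelial, fibroblast and mural markers lie higher in sham, Bcl2 and Bnip3 lie higher in TAC, and the cardiomyocyte list stays near 0.

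Matches to 5 miRNAs on which the study worked were searched in the members, since members such as Bcl2 and Bcl2l11 are known miRNA targets in other tissues. miRNA levels were not analysed here. The mature mouse sequences (RefSeq, GRCm38.p6) share no seed, and capitals mark the seed, bases 2 to 8.
mmu-let-7f-5p: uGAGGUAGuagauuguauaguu
mmu-miR-16-5p: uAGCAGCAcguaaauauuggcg
mmu-miR-200b-3p: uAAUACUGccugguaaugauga
mmu-miR-92a-3p: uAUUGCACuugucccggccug
mmu-miR-24-3p: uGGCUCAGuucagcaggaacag

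Complements of these seeds were searched in the longest annotated 3′ untranslated region (3′UTR) of each gene. At least 1 site of any of the 5 seeds was found in 7 of the 10 members, against 50.8% of 12359 tested genes. Bcl2l11 had 4 sites (2 of miR-92a and 2 of miR-24) in a region of 4218 bases, far above the median of 1236 bases. Bcl2 had 2 sites in 5086 bases, 1 of miR-16 and 1 of miR-200b. Bcl2l1 had 1 of let-7f and 1 of miR-24, Bak1 had 1 of miR-92a and 1 of miR-24, and Mcl1 (miR-92a), Bbc3 (miR-24) and Bnip3l (miR-200b) had 1 each. Bax, Bnip3 and Pmaip1 had none. A match to miR-92a was found in 7.81% of tested genes, one to let-7f in 10.6%, to miR-200b in 15.9%, to miR-24 in 19.5% and to miR-16 in 25.3%. Sites of the members closest to the threshold, and that of Mcl1, are given here with their surroundings (GRCm38, sense strand of the gene, site in capitals). The other miR-24 site of Bcl2l11, at position 2828 of its 3′UTR, is not printed because its surroundings overlap those of the miR-92a site at position 2845.
Bcl2, miR-16, chr1:106540788-106540816, minus strand: aagaaaccctgTGCTGCTatcctgccaag
Bcl2, miR-200b, chr1:106540482-106540510, minus strand: ctagaactggaCAGTATTgtggctgcatt
Bcl2l11, miR-24, chr2:128158794-128158822, plus strand: tgcagtgggaaCTGAGCCagctgatttat
Bcl2l11, miR-92a, chr2:128161163-128161191, plus strand: caaatgtctctGTGCAATtgtgttccctt
Bcl2l11, miR-92a, chr2:128162438-128162466, plus strand: ccactgtacctGTGCAATactgctgtaaa
Mcl1, miR-92a, chr3:95660824-95660852, plus strand: ccttgtgaGTGCAATaggggactcttaaa

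A match of these letters is a description and shows no binding.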

How the data were processed

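RNA-seq of isolated mouse cardiomyocytes was analysed for 2 sham and 2 TAC libraries, grouped by sample title. According to the methods each sample held part of the myocytes of a single mouse heart, so replicates of a group are different hearts. Per the labels' processing notes, the submitters used Bowtie2 2.2.8 and StringTie 1.3.1 with mm10. For each gene the authors deposited an expected count, often fractional, and an FPKM value. No source used here says how shared fragments were divided or whether strand was used. Expected counts were rounded, filtered with filterByExpr, scaled by TMM (factors 0.868 to 1.10) and tested with edgeR 4.0.16 (glmQLFit, glmQLFTest; R 4.3.3), with Benjamini-Hochberg adjustment over 12499 genes and a threshold of 0.05. The SE is the log2 fold change over the square root of F. The common biological coefficient of variation was 10.5%.

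Alternatives were DESeq2 1.42.0, total-count scaling (the study's), no filter, each library left out, the replicate number as a block, limma 3.58.1 on log2(FPKM + 0.1) or log2(FPKM + 1), and a threshold of 0.1. Members and lists were chosen with earlier results of these data known. Named genes were all members and, of each list, the called genes (at most 4) or, with fewer than 2 called, also the 2 with the highest mean CPM. Scripts were tested on simulated data. GENCODE M21 held 22267 of the 22322 genes.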

Additional observations from a re-analysis of the deposited data

How the results depend on the processing

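Over the 9 tested members and up to 11 other settings, 98 comparisons were made: 85 kept direction and side of the threshold, 8 passed the threshold in the same direction and 5 changed sign. DESeq2 gave no adjusted p for Bbc3. The sign changes were in Bax, with total-count scaling (−0.043), on log2(FPKM + 0.1) (−0.084), on log2(FPKM + 1) (−0.061) and without TAC 2 (leaving out single libraries gave −0.31 to 0.46), and in Bak1 without TAC 2 (−0.14 to 0.036). The cause was not tested. The number of members called went from 0 to 1 with DESeq2 and to 2 with no filter and at an adjusted p under 0.1, and ranged from 0 to 3 when a library was left out. Over the whole table the 626 calls became 1676 with no filter, 195 on log2(FPKM + 0.1) and 1817 at the looser threshold, and 301 to 1336 without single libraries. Calls in the 8 pathway lists together, 7 in all, became 13 with DESeq2, 18 with no filter, 4 on log2(FPKM + 0.1) and 19 at the looser threshold, and 5 to 15 without single libraries. The pro-survival sum moved from −0.38 to −0.19 on the log2 scale in CPM, and the pro-death sum from −0.34 to −0.26, with −0.58 to −0.11 when a library was left out.

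With the replicate number as a block, 566 genes and no member were called; deviations of same-numbered libraries correlated at −0.24. The crossed pairing, chosen after seeing the data, gave 2131 calls over all genes, 2 among the members and 21 in the pathway lists. Depth limits Bbc3 and Pmaip1 most.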
